A study of Mus musculus with 6 samples.

Results

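Brown and beige adipocyte cultures differentiated in the same medium were compared by their open chromatin, as 4 ATAC-seq peak lists out of the 6 in the series. ATAC-seq cuts accessible DNA with a transposase, and a peak is a stretch with more cuts than the local background of the same library. The brown libraries (2 biological replicates) came from stromal vascular fraction (SVF) cells of brown adipose tissue, and the beige libraries (2 biological replicates) from SVF cells of subcutaneous (inguinal) adipose tissue. All donors were wild type male C57BL/6J mice of 3 to 4 weeks, and all cultures were harvested after 7 days. Per the labels, both media held 5 μg/ml insulin, 5 µM dexamethasone, 0.5 mM IBMX (a phosphodiesterase inhibitor that raises cAMP), 1.0 nM T3 and 1.0 µM rosiglitazone (a PPARG agonist). The study's methods give a lower insulin dose for the beige medium and do not describe the brown cultures. Depot of origin and dissection differ together between the groups, so their parts in any difference cannot be told apart. The study's reporting summary lists the beige but not the brown libraries, and whether both were prepared and sequenced together is not stated. A difference in preparation or sequencing would coincide with group and could not be told apart from depot either. In such mixed cultures, fewer cells of a type and less open chromatin per cell cannot be told apart either.

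Brown fat burns lipid for heat through the mitochondrial uncoupler Ucp1, and its precursors descend largely from the dermomyotome of the embryo. Beige adipocytes arise within subcutaneous white depots and can switch on much of the same heat-producing program when stimulated. Fat depots also keep a record of body position in the genes of embryonic patterning (such as the T-box and Hox genes), and open enhancers and promoters are one place where such a record can be read.

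The intervals of the 4 lists were merged where they overlapped by at least 1 bp, which gave 167713 regions. A region was called brown-only where both brown and no beige library had a peak (3065 regions, 1.83% of all), beige-only in the reverse case (9829 regions, 5.86%) and shared where all 4 libraries had one (68018 regions, 40.6%). The remaining 86801 regions had a peak in other combinations, mostly in a single library. Because fold enrichment is scaled to each library, the strength of a peak is given as its percentile of fold enrichment within its own list, where 100 is the highest. A pair of numbers in parentheses gives replicate 1 and replicate 2. Each region was assigned to the nearest start site of a protein-coding gene by its strongest summit, and negative distances lie upstream. With 2 libraries against 2 an exact permutation test gives no two-sided p below 0.33, so differences are described beside the spread between replicates and not tested.

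The regions below are examples picked by gene, by motif match or by both. Within each such choice the highest-ranked candidates were taken, by the lower percentile in the lists of their own group. Some candidates were passed over for their position, such as overlap with untranslated parts of genes. The examples are thus among the stronger regions of their kind and not typical ones. Each is shown as the 121 bp centred on its summit, on the plus strand of mm10 from 5′ to 3′, from the RefSeq copy of GRCm38.p6. The first pair are the brown-only promoter peaks of Zic1 (chr9:91365855-91365975, -105 bp from the start site, percentiles 43.2 and 63.8) and Ucp1 (chr8:83290168-83290288, -124 bp, 9.12 and 2.01), in which no motif is marked.
Zic1: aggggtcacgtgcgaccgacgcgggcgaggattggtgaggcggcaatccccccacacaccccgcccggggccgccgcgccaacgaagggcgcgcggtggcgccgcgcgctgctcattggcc
Ucp1: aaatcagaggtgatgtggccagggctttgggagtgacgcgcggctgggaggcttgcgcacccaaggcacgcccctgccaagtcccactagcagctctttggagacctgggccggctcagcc

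Brown-only regions away from promoters often held the AP-1 consensus TGANTCA (N is any base), which is in capitals in the next 3. The first lies 77661 bp downstream of the Lhx8 start site, past the end of Lhx8 and in an intron of another annotated gene (chr3:154252338-154252458), and the other two are among the 10 highest-ranked brown-only regions, near Adcy2 (chr13:69265890-69266010) and Mab21l3 (chr3:101779515-101779635).
Lhx8: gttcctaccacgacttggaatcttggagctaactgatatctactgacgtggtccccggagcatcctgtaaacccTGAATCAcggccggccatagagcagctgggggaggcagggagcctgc
Adcy2: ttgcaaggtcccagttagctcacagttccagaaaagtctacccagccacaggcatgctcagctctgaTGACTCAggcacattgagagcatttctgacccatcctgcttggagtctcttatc
Mab21l3: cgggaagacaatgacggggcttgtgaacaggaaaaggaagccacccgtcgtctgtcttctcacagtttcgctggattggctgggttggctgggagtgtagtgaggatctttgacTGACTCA

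The strongest beige-only regions often held a consensus of the insulator-binding protein CTCF instead, which is in capitals on either strand in the next 4. Those near Atp13a4 (chr16:29560978-29561098), Anks1b (chr10:90690274-90690394) and Zfp637 (chr6:117758668-117758788) are among the 10 highest-ranked beige-only regions, and that near Tmem26 (chr10:68902779-68902899), a surface marker of beige adipocytes, lies 179093 bp downstream of its start site.
Atp13a4: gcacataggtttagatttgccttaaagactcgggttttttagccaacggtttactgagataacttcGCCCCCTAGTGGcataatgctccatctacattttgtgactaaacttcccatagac
Anks1b: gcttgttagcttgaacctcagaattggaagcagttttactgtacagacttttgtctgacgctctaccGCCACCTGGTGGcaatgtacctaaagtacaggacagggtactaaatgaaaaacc
Zfp637: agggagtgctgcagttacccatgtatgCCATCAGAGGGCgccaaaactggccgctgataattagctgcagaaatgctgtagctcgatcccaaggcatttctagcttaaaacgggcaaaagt
Tmem26: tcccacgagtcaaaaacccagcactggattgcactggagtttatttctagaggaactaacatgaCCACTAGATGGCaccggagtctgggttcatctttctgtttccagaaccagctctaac

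The last is a beige-only region within the Hoxb cluster, -2530 bp from a start site of Hoxb3 (chr11:96341179-96341299), with the letters TTTATNG of posterior HOX proteins in capitals.
Hoxb3: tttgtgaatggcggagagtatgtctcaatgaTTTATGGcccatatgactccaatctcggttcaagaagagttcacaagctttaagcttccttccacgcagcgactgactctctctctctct

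The lists held 113861 and 109143 peaks in brown and 118812 and 127490 in beige, covering 36.4 to 47.2 Mb, of which 17.5% to 19.0% lay in promoters (within 1 kb of a start site). They hold no read counts. The study's reporting summary gives read totals for the beige libraries, which were not used here, and the depth of the brown libraries is not given in the sources used here. The Jaccard index (bases covered in both lists over bases covered in either) was 0.627 between the brown and 0.671 between the beige replicates. Across groups it was 0.634 and 0.622 for brown replicate 1 and 0.590 and 0.567 for brown replicate 2, each with beige replicates 1 and 2. Brown replicate 1 therefore overlapped beige replicate 1 slightly more than it overlapped the other brown library. The promoters of all 10 adipocyte markers, from Adipoq to Dgat2, had a peak in all 4 libraries, as had 8 of 10 progenitor markers, against 63.2% of all protein-coding genes. Counts near that share do not show which cells were present. By contrast, none of 10 skeletal muscle markers, 1 of 10 lymphocyte markers and 2 of 10 macrophage markers (Adgre1 and Cd68) had a promoter peak in all 4, and the macrophage regulator Spi1 and the muscle regulators Myod1 and Myog had none in any. The promoter of the macrophage marker Adgre1 stood at 29.4 and 32.0 in brown and 52.8 and 57.5 in beige, and that of Cd68 at 4.12 and 9.47 in brown and 4.37 and 0.728 in beige, where the groups overlapped. Of the endothelial markers 5 of 10 had a promoter peak in all 4, with Pecam1 at 65.6 to 75.7 and none at Cdh5 or Emcn, and of the smooth muscle and pericyte markers 8 of 10. The part of such cells in the differences described here was not tested.

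Regions found in both libraries of a group and no other were more frequent in beige than in brown. The 9829 beige-only regions outnumbered each of the other 5 pairs of libraries, whereas the 3065 brown-only regions did not stand apart. Regions with a peak in exactly brown replicate 1 and beige replicate 2 numbered 4211, and the other mixed pairs numbered 1260 to 2316. The ratio of brown-only to beige-only regions was 0.312. It became 0.542 when the lists were cut to equal length, 1.01 without brown replicate 1, 1.10 without brown replicate 2 and 0.165 without beige replicate 1. The larger number of beige-only regions therefore held with all 4 libraries and with equally long lists. When a library is left out, its group needs a peak in a single library, which adds the peaks found in that library alone. The ratios without a library therefore cannot show whether the larger number holds.

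**Figure D1:**
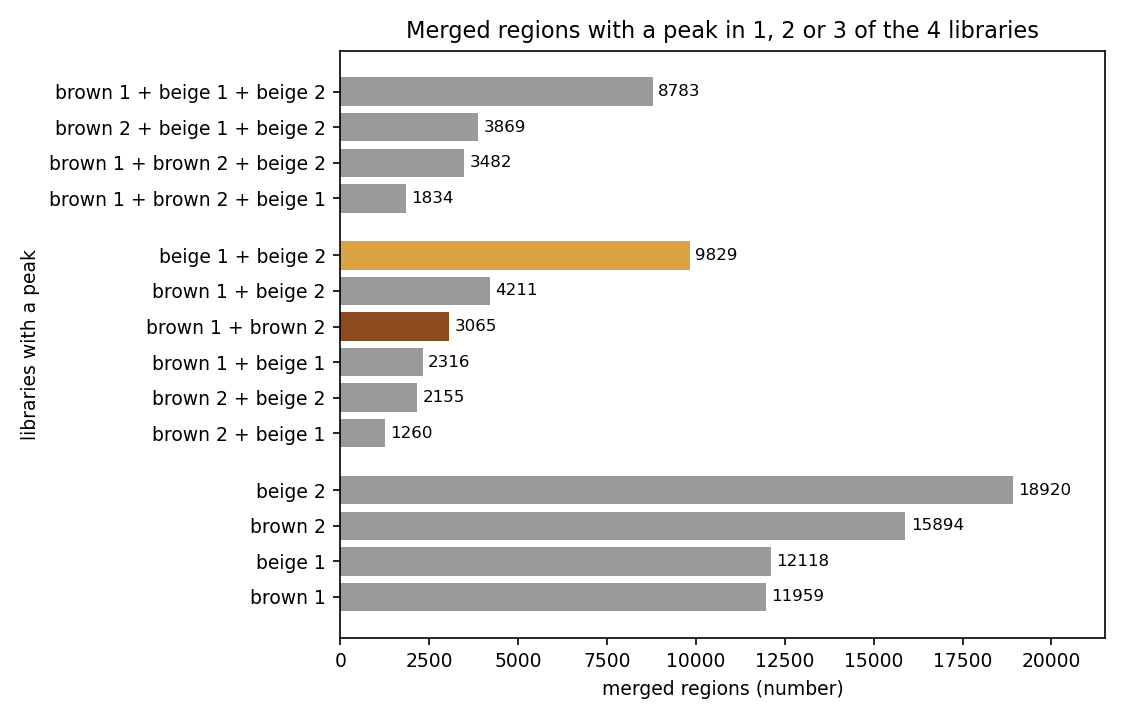
Number of merged regions (x axis) for each combination of 1, 2 or 3 libraries with a peak (y axis), with the brown pair in brown, the beige pair in gold and all other combinations in grey. The beige pair (9829) is the longest of the 6 pairs, and the brown pair (3065) lies between mixed pairs of brown and beige libraries (1260 to 4211).

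The group-specific regions were narrower and ranked lower than the shared regions, and brown-only regions lay farthest from genes. Median width was 258 bp for brown-only and 230 bp for beige-only regions, against 509 bp for shared regions and 186 bp for regions of other combinations. The median percentile was 29.2 and 28.2 in the brown libraries for brown-only regions and 32.1 and 34.3 in the beige libraries for beige-only regions, against 67.9 to 71.6 for shared regions. Peaks above the 75th percentile made up 1.31% and 0.522% of brown-only and 1.16% and 3.01% of beige-only regions. The weaker of the 2 peaks of a brown-only region had a median −log10 q of 4.11 and a lowest of 1.30, which is the authors' threshold, and for beige-only regions these were 5.40 and 1.31. Just outside the classes, 5316 regions were kept from brown-only by a peak in 1 beige library (−log10 q 1.33 to 42.2, median 6.05) and 12652 from beige-only by a peak in 1 brown library (1.30 to 44.7, median 6.35).

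By position, 4.83% of brown-only regions lay in promoters (95% Clopper-Pearson interval 4.10 to 5.65), 9.32% of beige-only (8.75 to 9.91) and 22.2% of shared regions (21.9 to 22.5), against 13% of all merged regions. These intervals cover counting error only. The median distance to a start site was 44214 bp for brown-only, 26639 bp for beige-only and 18960 bp for shared regions, against 28128 bp for all merged regions, and 29.0%, 20.3% and 16.3% of the 3 classes lay over 100 kb away, against 22.2% of all. Introns of protein-coding genes held 39.9% of brown-only and 42.9% of beige-only regions, and sequence outside such genes and their promoters 52.1% and 44.8%. The order of the 2 promoter shares was not fixed: with windows of 100 bp to each side of the summit in place of intervals, it was 20.7% for brown-only and 12.5% for beige-only regions. By chromosome, brown-only regions made up 1.32% (X) to 2.33% (chromosome 12) and beige-only regions 5.38% to 7.13% (X) of the merged regions, the Y aside.

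The sequence around distal summits differed between the classes. By the ratio of shares the difference was largest for CTCF, a zinc finger protein that sits at insulators and the anchors of chromatin loops. In percentage points it was largest for AP-1, described below. Distal summits (over 1 kb from every start site) were searched over the 100 bp to each side, on both strands, in 2917 brown-only, 8913 beige-only, 52917 shared and 145893 distal regions in all. A CTCF match was found in 3.84% of brown-only (3.17 to 4.60) and 17.6% of beige-only regions (16.8 to 18.4), against 13.6% of shared and 10.1% of all distal regions. Per library, 10.8% and 10.9% of the distal regions with a brown peak and 12.7% and 12.6% of those with a beige peak held a match. Both brown libraries thus lay below both beige libraries, by more than the replicates differed. The lower share in brown-only than in beige-only regions held when each of the 4 libraries was left out in turn (3.72% to 3.95% against 11.3% to 18.0%). It also held in windows of 50 bp to each side (2.33% and 15.9%) and of 45% to 55% GC (3.36% and 17.3%). Beige-only windows held more repeat sequence (median 9.95%, against 0.995% in brown-only windows). In windows of at most 10% repeat the shares were 4.23% and 14.4% (13.3 to 15.4). Shared regions had 13.5% there, so the beige-only share was then close to the shared one.

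The CTCF share also followed rank within the lists in beige-only regions. Among beige-only regions it was 9.12% where the lower of the 2 percentiles was at most 20, 14.9% from 20 to 40, 29.9% from 40 to 60, 47.0% from 60 to 80 and 54.5% (12 of 22 regions) above 80. Among brown-only regions it was 4.20%, 4.00% and 2.81% in the first 3 of these bins and 0 of 72 regions from 60 to 80, which allows up to 4.99%. Among shared regions it ran from 8.46% to 16.6%. Of the 10 highest-ranked beige-only regions, 6 held a match: those near Atp13a4, Anks1b, Zfp637, Slco1c1, Ptpro and Uvrag. All 10 were narrow, at 233 to 275 bp, and stood high in both beige libraries, such as 86.6 and 88.3 near Plxnc1 and 84.0 and 95.1 near Grin2b.

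Shared regions showed the same order without any region being absent from a library. The 7184 shared distal regions with a CTCF match had median percentiles of 65.3 and 66.9 in brown and 78.3 and 82.5 in beige, so the groups did not overlap. Their median difference (brown minus beige) was -12.0 points, against -1.44 over all 52917 shared distal regions, and it was -11.2 when peaks were ranked by −log10 q and -13.2 when ranked among shared regions alone. Of these 7184, 741 (10.3%) ranked at least 20 points higher in both beige than in both brown libraries and 31 (0.432%) the other way, where all shared distal regions gave 3.67% and 1.63%. Read from the other side, 38.2% of the shared distal regions ranked higher in beige held a CTCF match (36.0 to 40.4) and 3.59% of those ranked higher in brown (2.45 to 5.05). The cause was not tested.

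**Figure D2:**
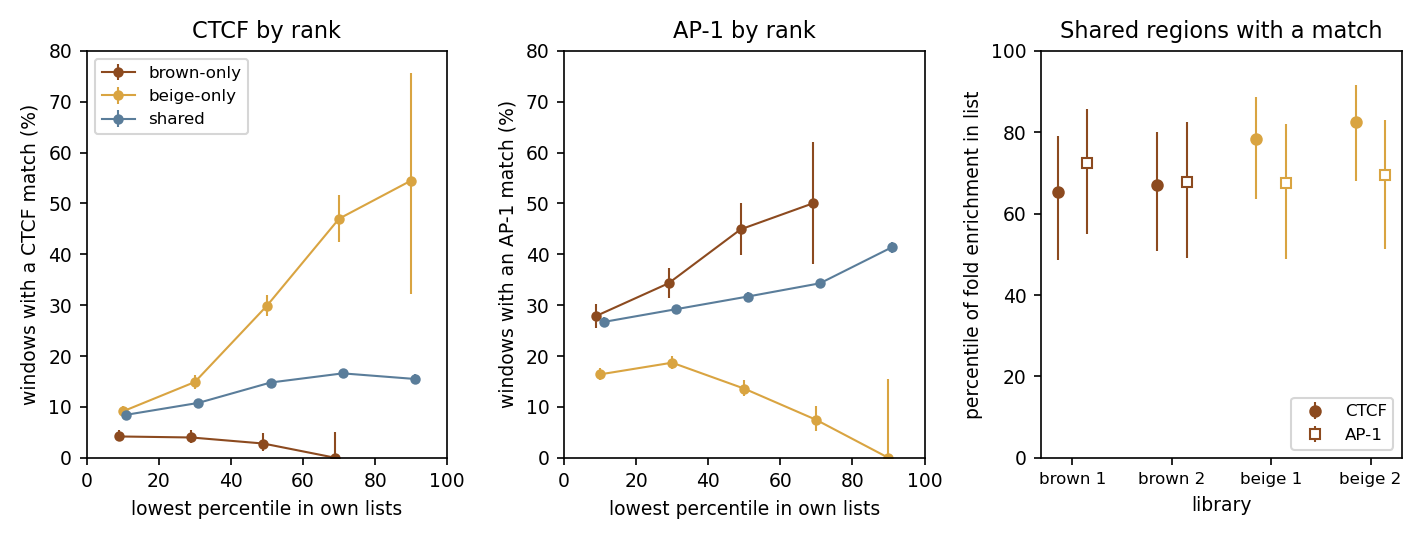
Left and middle: share of distal windows with a CTCF or an AP-1 match (y axis, %) by the lower percentile of the region in its own lists (x axis, bins of 20 points with at least 20 regions), with exact 95% intervals. The CTCF share climbs to 54.5% in beige-only regions and stays at or below 4.20% in brown-only regions, while AP-1 climbs from 27.9% to 36 of 72 in brown-only regions. Right: median (marker) and middle range from the 25th to the 75th percentile (bar) of the percentile of shared distal regions with a match, by library, with CTCF at 65.3 and 66.9 in brown and 78.3 and 82.5 in beige.

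AP-1, the dimer of Fos and Jun proteins that opens enhancers in many cell types, gave the opposite order. Its consensus was found in 33.0% of brown-only (31.3 to 34.7) and 16.1% of beige-only regions (15.4 to 16.9), against 32.5% of shared and 24.7% of all distal regions. The brown-only regions were thus close to the shared regions, and the beige-only regions were low. In brown-only regions the share was 27.9%, 34.3% and 44.9% in the first 3 bins of rank and 36 of 72 regions from 60 to 80, and in beige-only regions 16.4%, 18.7%, 13.6% and 7.45%, with 0 of 22 above 80. Of the shared distal regions ranked higher in brown, 41.6% held AP-1 (38.2 to 44.9), and of those ranked higher in beige 12.0% (10.6 to 13.5). However, the order in group-specific regions depended on brown replicate 1. Its distal regions held AP-1 in 31.2% of cases, where the other brown library had 27.6% and the beige libraries 27.5% and 27.0%. Without brown replicate 1 the shares were 14.9% in brown-only and 21.2% in beige-only regions, the reverse order. Brown-only then meant a peak in brown replicate 2 and in no beige library, which gave 18248 windows in place of 2917. Without brown replicate 2, where brown-only likewise meant a peak in a single brown library, the shares were 27.1% and 16.1%.

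Other motifs differed by fewer percentage points. TEAD (CATTCC, bound by the partners of Yap and Taz) was found in 19.2% of brown-only and 12.6% of beige-only regions, and RUNX (TGTGGTT), a family of mesenchymal and blood regulators, in 8.78% and 4.99%. Without brown replicate 1, where brown-only again meant a peak in brown replicate 2 and no beige library, these too came close. They were 14.0% and 13.3% for TEAD and 5.57% and 5.39% for RUNX. C/EBP (TTGCNNAA, bound by the early adipogenic factors) was found in 10.5% and 17%, where shared regions had 15.8%. Posterior HOX letters (TTTATNG) were found in 4.29% and 9.05%, with 6.27% in shared regions, and the core homeobox letters TAATTA in 2.19% and 4.16%. These last 3 orders held when each library was left out in turn, with C/EBP at 7.96% to 11.9% in brown-only and 15.2% to 16.8% in beige-only regions. Beige-only windows were poorer in GC than brown-only ones (median 47.3% and 49.8%), and in windows of 45% to 55% GC the posterior HOX shares were 4.52% and 6.51% and the homeobox shares 1.98% and 2.69%, with overlapping intervals for the latter (1.39 to 2.74 and 2.24 to 3.20). The same letters read in reversed order, as a control, gave the same order, at 7.06% and 10.8% for posterior HOX and 3.19% and 4.15% for homeobox. For C/EBP the reversed letters gave 2.16% and 2.41%. The motif of PPARG with its partner RXR lay in 0.411% and 0.426% of windows, ZIC (CAGCAGG) in 8.84% and 9.19%, TBX (AGGTGTGA) in 0.514% and 0.527% and ETS (CCGGAAG), bound by the factor the study is about, in 1.20% and 1.34%. The intervals of these 4 overlapped between brown-only and beige-only regions. A match is a string of letters and not a bound site, and matches of different motifs can overlap.

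**Figure D3:**
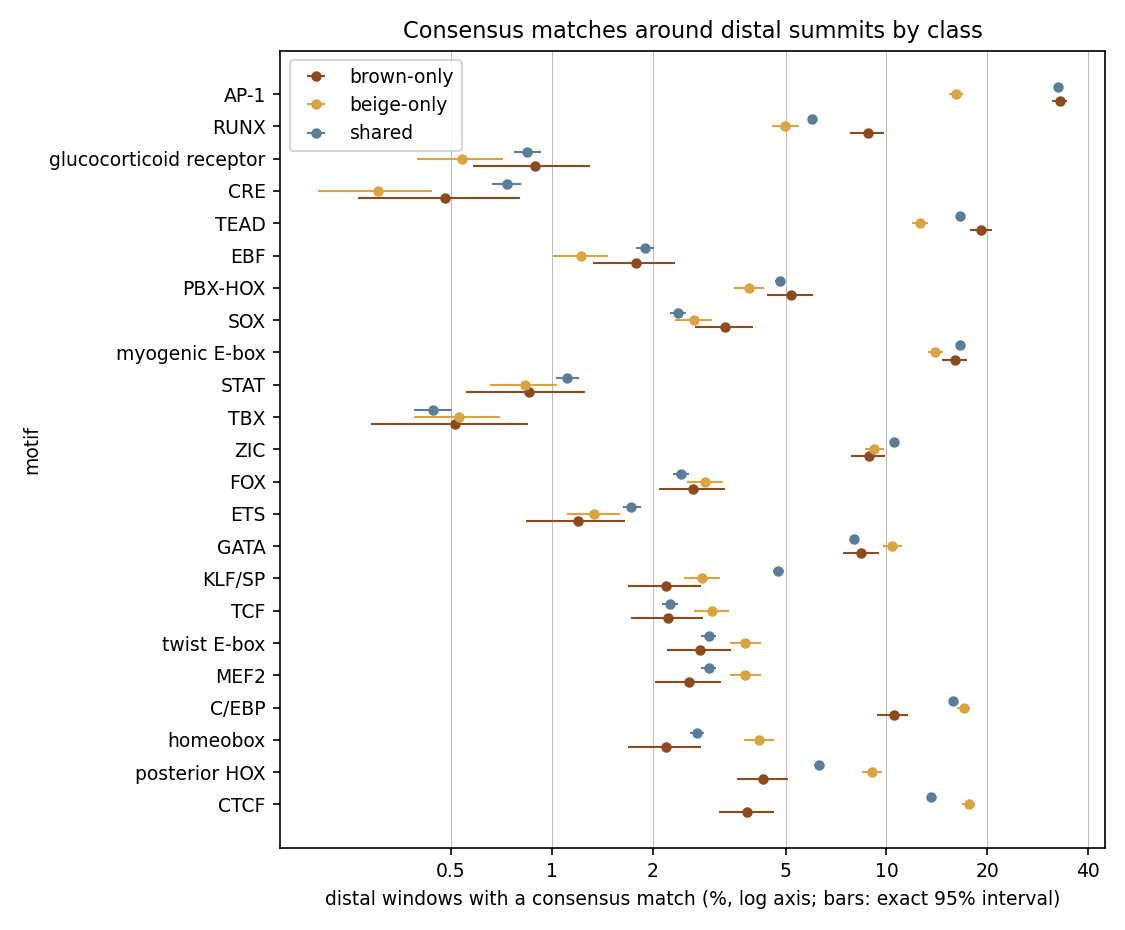
Share of distal windows with a consensus match (x axis, %, log scale) in brown-only, beige-only and shared regions, for the more frequent motifs (y axis), ordered by the ratio of brown-only to beige-only share, with exact 95% intervals. AP-1 (33.0% and 16.1%) and CTCF (3.84% and 17.6%) stand at the 2 ends.

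Some patterning genes of the brown depot had regions in brown only, while others had regions that ranked higher in beige. Of the 280 regions nearest to 21 genes of the dermomyotome and the brown depot, 9 (3.21%) were brown-only and 10 (3.57%) beige-only, against 1.83% and 5.86% of all regions. Zic1, a zinc finger gene of the dorsal neural tube and somites and a marker of classical brown fat, had 3 of the 9. They lay at its promoter (-105 bp; 43.2 and 63.8) and at 14814 bp (40.6 and 51.7) and 12730 bp (11.1 and 12.2) from its start site. A shared region at 9934 bp stood at 70.8 and 74.0 in brown and 20.2 and 42.6 in beige. Another at 3585 bp went the other way, at 22.5 and 22.9 against 51.9 and 62.8, and a beige-only region lay at 541991 bp. Counting every summit within 1 kb of the Zic1 start site, brown libraries had a peak at 43.2 and 63.8, beige replicate 1 had none and beige replicate 2 had one at 14.9, so the gene is not among those with a promoter peak in brown only.

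Zic4, which starts beside Zic1, had a promoter peak in brown only (5.50 and 10.3) and a brown-only region in an intron at 2058 bp (16.7 and 17.4). Lhx8, a LIM homeobox gene and marker of brown depots, had the brown-only region shown above, past its end (57.2 and 68.7), and a shared region at its promoter, at 284 bp, stood at 48.5 and 55.8 in brown and 4.42 and 14.5 in beige. It also had 3 weak beige-only regions, none above 28.2, and 1 of them lay at the same promoter. Its shared region at -111038 bp stood at 64.3 and 74.6 against 40.1 and 34.1. In each of these shared regions the brown values lay above the beige values with no overlap.

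Among the other genes of the list, the promoters of Eya1 (83.6 and 85.8 against 71.3 and 76.7) and Sim1 (86.4 and 87.7 against 72.2 and 81.3), regulators of embryonic development, ranked higher in both brown libraries. Over the 11 genes of the list with a promoter peak in all 4 libraries, 8 had both brown percentiles above both beige ones and 1 (Meox2, 56.0 and 59.7 against 61.0 and 61.9) the reverse, where 33.1% and 17.4% of all 13865 such genes did. Their median difference was 10.3 points by fold enrichment and 3.69 by −log10 q, against 0.841 and -0.618 for all such genes. Of the 21 genes of the list, 6 had no promoter peak in any library, near the share of all protein-coding genes (30.2%). They were Epsti1 and Meox1, Pax7, Myf5, Myf6 and Myod1, the last 5 of which mark the dermomyotome and its muscle line. Of the 103 shared regions of the list, 4 (3.88%) ranked at least 20 points higher in both brown and 7 (6.80%) in both beige libraries, against 1.40% and 2.99% of all shared regions. Near Meox1, 3 shared regions ranked higher in beige, such as that at -16058 bp (58.8 and 59.0 against 87.3 and 88.1).

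The Ucp1 promoter had a peak in brown only, but a weak one. Its strongest summits within 1 kb reached percentiles of 9.12 and 4.23 with no peak in either beige library, and a further brown-only region upstream, at -5768 bp, stood at 1.84 and 25.1. Over the thermogenic list of 30 genes, 15 of 522 regions (2.87%) were brown-only and 27 (5.17%) beige-only, against 1.83% and 5.86% of all regions. With peaks of q below 0.00001 the brown-only share of the list was 1.32%, and the share of all regions at that cutoff is not given here. The promoters of the list stood near the shares of all genes. Of 26 genes open in all 4 libraries, 8 (30.8%) stood higher in both brown and 6 (23.1%) higher in both beige libraries, against 33.1% and 17.4% of all such genes. The median difference of 0.750 points turned to -2.03 when peaks were ranked by −log10 q, against 0.841 and -0.618 for all such genes.

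Single thermogenic genes differed in both directions. Cidea, a lipid droplet protein of brown fat, had a brown-only region at -7123 bp (59.6 and 36.9), and its promoter stood at 77.8 and 78.6 in brown and 73.6 and 70.9 in beige. Ppargc1a, the coactivator of mitochondrial biogenesis, had 2 distant brown-only regions (19.2 and 63.2, and 36.6 and 35.3) and a shared intronic region at 8040 bp that stood at 70.0 and 68.7 in brown and 46.3 and 47.2 in beige. The promoter of Elovl3, a fatty acid elongase, stood at 54.3 and 39.7 against 30.8 and 22.4. In contrast, the muscle-type cytochrome oxidase subunit Cox7a1 (88.7 and 90.4 against 94.4 and 93.7) and the lipid-oxidation regulator Ppara (86.3 and 88.6 against 91.3 and 90.8) ranked slightly higher in beige. Elovl3 and Cox7a1, like Meox2 above and the Hox promoters below, were named after their values had been seen. Of the 32 regions near Ppargc1b 4 were beige-only and none brown-only, of the 31 near the deiodinase gene Dio2 2 were beige-only, and of the 79 near Zfp516 5 were beige-only and 1 brown-only, where 5.86% of all regions were beige-only. The Zfp516 promoter ranked higher in brown (46.3 and 60.2 against 29.2 and 30.2).

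Ebf2, an early factor of brown and beige precursors, had regions of every class. It had 3 brown-only and 6 beige-only regions among 53, where 1.83% and 5.86% of all regions were brown-only and beige-only. The promoter peak was high in all libraries (86.2 and 91.9 in brown, 83.9 and 82.3 in beige). At -62837 bp a shared region stood at 71.0 and 69.0 in brown and 7.11 and 36.4 in beige, and closer to the gene, at -60645 bp, a beige-only region stood at 66.0 and 35.6. Thrb, a thyroid hormone receptor, had 6 regions of each group-specific class among 69. The highest brown-only one lay at 81062 bp (49.6 and 60.6) and the highest beige-only one at 41038 bp (51.9 and 62.2).

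Genes of the T-box and beige-selective list had a higher share of beige-only and of brown-only regions than all regions had, and their promoters ranked higher in brown by fold enrichment. Of their 377 regions, 13 (3.45%) were brown-only and 34 (9.02%) beige-only, against 1.83% and 5.86% of all regions. Tbx3, Tbx2 and Tbx5, T-box factors of limb and trunk patterning, had 5 of 54, 3 of 29 and 3 of 19 regions in the beige-only class. None had a brown-only region, which is near the share over all regions at such totals. The beige-only regions of Tbx3 included those at -163646 bp (65.0 and 57.0) and at -306219 bp (45.4 and 65.9). Tbx18, a T-box gene of somites and mesenchyme, had 2 brown-only regions, the stronger at 197882 bp (67.9 and 69.5), and 4 beige-only regions. Tbx15 had 2 brown-only regions, such as that at 229713 bp (47.7 and 54.4), and 4 beige-only regions. Beside its beige-only CTCF region at 179093 bp (67.8 and 72.1), Tmem26 had a shared region at -25864 bp at 15.3 and 23.4 in brown and 52.4 and 57.1 in beige. Among the 12 promoters of the list open in all libraries, 8 had both brown percentiles above both beige ones and none the reverse, where 33.1% and 17.4% of all such genes did. The median difference was 7.99 points by fold enrichment and 0.281 by −log10 q, against 0.841 and -0.618 for all such genes.

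The Hox genes, whose order along each cluster follows their order along the body axis, are listed here by paralogue number. Of the 193 regions nearest to the 39 Hox genes, 6 (3.11%) were brown-only and 19 (9.84%) beige-only, against 1.83% and 5.86% of all regions. All 6 brown-only regions belonged to anterior genes of paralogue numbers 1 to 5, which also had 7 beige-only of 98 regions. Genes 6 to 8 had 0 brown-only and 6 beige-only of 29 regions (20.7%), and genes 9 to 13 had 0 and 6 of 66 (9.09%). Hoxb held 9 of the 19 beige-only regions, 16.7% of its 54. These counts are small, the zeros are near the share over all regions, and no test was made between them.

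At single Hox genes, the brown-only promoters were Hoxa2 (26.4 and 11.1) and Hoxb2 (0.588 and 6.18), and a brown-only region lay 351 bp into Hoxd4 (40.1 and 50.3), whose strongest promoter peak was shared. Hoxc9 had a promoter peak in beige only (2.97 and 8.03), though a shared region 4973 bp downstream stood at 77.6 and 68.5 in brown and 29.5 and 35.2 in beige. Beige-only regions lay at -486 bp from Hoxb13 (40.4 and 37.3), upstream of Hoxb3 (44.4 and 37.7), at 3 places nearest to Hoxb7 (3.03 to 8.81 in replicate 1) and at 2 in the Hoxa11 promoter (5.87 and 39.9, and 4.39 and 26.7). Brown replicate 1 also had another peak within 1 kb of the Hoxb13 (64.6) and Hoxa11 (10.7) start sites. The Hoxb5 promoter stood at 38.8 and 30.5 in brown and 66.7 and 58.9 in beige, and a shared region at -36337 bp from Hoxb9 at 73.4 and 74.8 against 96.8 and 98.5. The Hoxc10 promoter went the other way by fold enrichment, at 84.5 and 80.1 against 62.3 and 61.5, but by −log10 q both beige libraries stood above both brown ones (mean difference -6.74 points). Of 26 Hox promoters open in all 4 libraries, 7 stood higher in both brown and 6 in both beige libraries by fold enrichment, where 33.1% and 17.4% of all genes did. By −log10 q these were 4 and 15, with a median difference of -5.75 points, where 2120 and 4715 of all 13865 genes stood higher in both brown and both beige libraries. Neighbouring Hox genes lie close together, and the nearest start site does not say which of them a region serves.

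**Figure D4:**
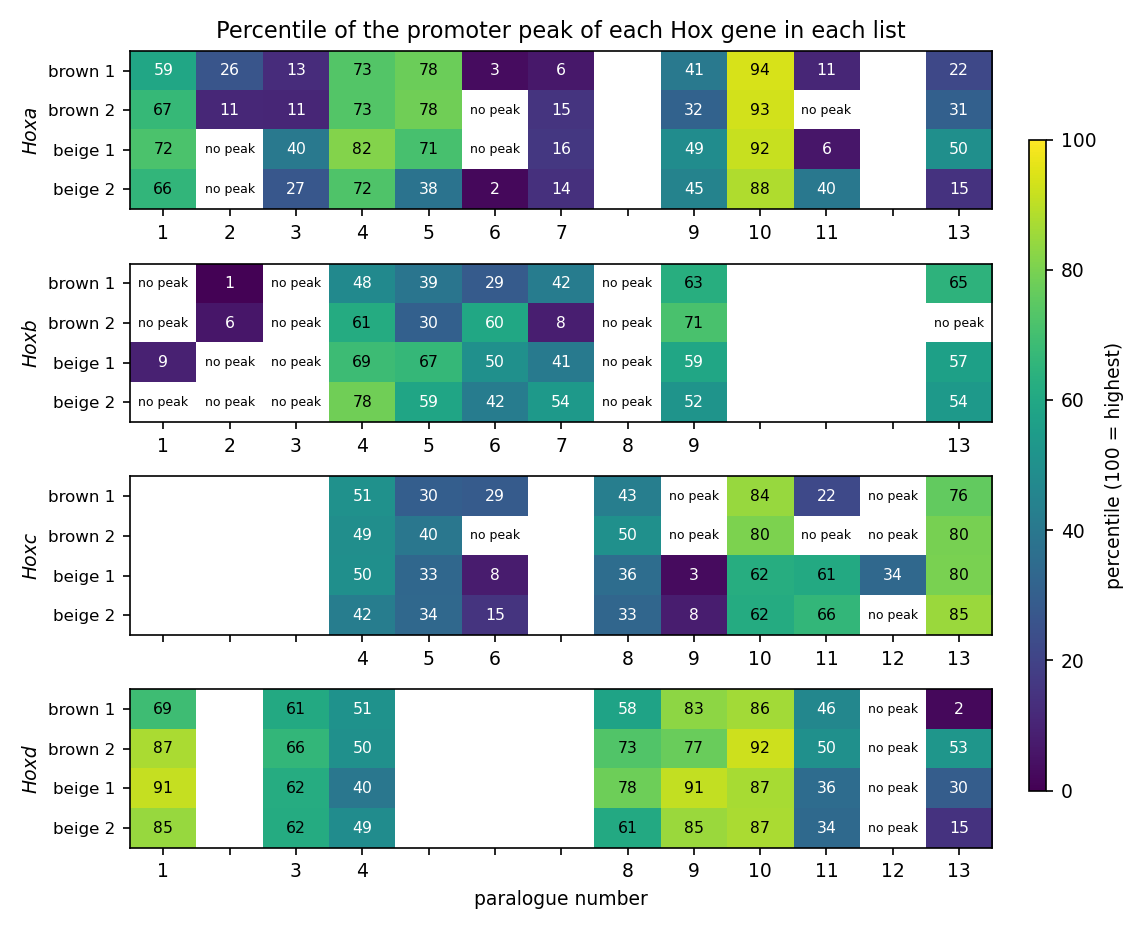
Percentile of the strongest promoter peak of each Hox gene (x axis, paralogue number; panels, clusters Hoxa to Hoxd) in each of the 4 libraries (rows), by fold enrichment, from 0 (dark) to 100 (yellow) and printed in each cell, with empty cells where the cluster has no such gene. The words no peak mark a promoter without one, and Hoxa2 and Hoxb2 have a peak in the brown rows alone, Hoxc9 in the beige rows alone, and Hoxc10 is brighter in both brown rows (84.5 and 80.1) than in the beige rows (62.3 and 61.5), an order that turns when peaks are ranked by −log10 q.

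Adipocyte genes were open in all cultures, and by fold enrichment most of their promoters ranked higher in brown. Of 30 genes of adipocyte identity and lipid storage, 27 had a promoter peak in all 4 libraries, against 63.2% of all genes. In 18 of these 27 both brown percentiles lay above both beige ones and in 1 the reverse, where 33.1% and 17.4% of all genes did, and the median difference was 10.0 points. Adipoq, which encodes the adipocyte hormone adiponectin, differed most, with 62.1 and 58.2 in brown and 2.54 and 24.8 in beige. Cidec, a lipid droplet protein, stood at 63.5 and 75.3 against 46.1 and 43.1, and Cebpb, an early adipogenic factor, at 59.3 and 66.7 against 46.5 and 28.4. The desaturase Scd1 (72.8 and 77.0 against 60.6 and 53.5), Cebpa (78.7 and 81.7 against 71.9 and 65.5) and the lipid droplet gene Plin4 (61.3 and 65.9 against 50.4 and 49.4) followed. Pparg, the master regulator, overlapped between groups (75.5 and 82.6 against 76.8 and 71.5), and Gpd1 was the single gene in reverse, at 0.728 and 3.80 against 4.56 and 6.86.

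This order depended on the measure of rank. By −log10 q the median difference of the list was 0.795 points, with 10 genes higher in brown and 5 in beige, where 2120 and 4715 of all 13865 genes did. When ranked among promoters alone, the median difference of the list was 5.81 points, with 15 and 1. For all 13865 genes it was 0.559 points by that ranking, with 3819 and 3087. Adipoq kept its order by −log10 q, with a difference of 40.9 points beside 46.5 by fold enrichment. The targets of the shared medium gave a like picture, as 13 of 25 promoters stood higher in both brown libraries and none in both beige, where 33.1% and 17.4% of all genes did. Their median difference was 7.41 points (1.10 by −log10 q), against 0.841 (-0.618) for all such genes. Examples are the glucocorticoid targets Per1 (62.0 and 69.1 against 46.3 and 46.1) and Tsc22d3 (87.6 and 89.2 against 79.2 and 80.7), the PPAR target Pdk4 (79.4 and 78.1 against 68.4 and 63.5) and the phosphodiesterase Pde3b (92.7 and 90.9 against 69.7 and 71.2). Of the genes named here, Adipoq, Pparg, Gpd1, Per1, Pdk4 and Pde3b have no group-specific region and were picked out after their values had been seen. The share of mature adipocytes in each culture was not measured in these files, and its part in these ranks was not tested.

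**Figure D5:**
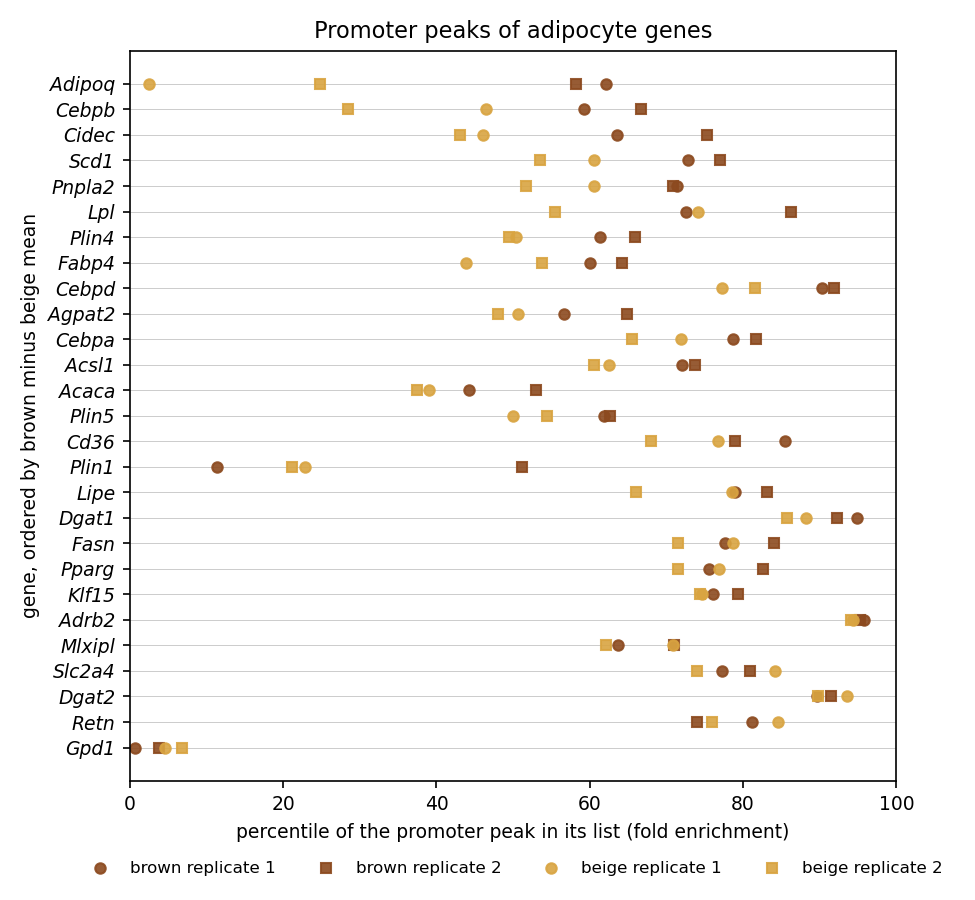
Percentile of the promoter peak (x axis) of the 27 adipocyte genes with a promoter peak in all 4 libraries (y axis, ordered by the brown minus beige mean), with brown libraries in brown, beige libraries in gold, circles for replicate 1 and squares for replicate 2. In 18 genes both brown points lie to the right of both beige points, most for Adipoq at the top, and in Gpd1 at the foot the order is reversed.

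Few protein-coding genes had a promoter peak in 1 group alone. Of 21938 genes, 68 (0.310%) had one in both brown and no beige library and 131 (0.597%) in both beige and no brown library, while 13865 (63.2%) had one in all 4 and 6630 (30.2%) in none. The highest-ranked brown-only promoters were Arxes2 (60.8 and 57.7), Sgms2, which makes sphingomyelin (49.9 and 59.8), the receptor genes Vmn1r1 and Olfr51, the basophil protease Mcpt8 (45.9 and 47.9), a (agouti; 49.2 and 41.4), Spaca7, the lymphatic marker Lyve1 (37.7 and 40.3), the nucleotide receptor P2ry14 (36.6 and 57.7) and Lyzl1. The highest-ranked beige-only promoters included the lipoxygenase Alox12e (71.6 and 75.8), Rtl9, Nat8f3, Mup21, the fatty acid hydroxylase Cyp4a10 (68.5 and 61.9), Yipf7, Tbc1d21, Eif4ebp3 and the cold-sensing channel Trpm8 (56.2 and 53.7). Arxes1 was open in beige only (51.1 and 45.3) where its close copy and neighbour Arxes2 was open in brown only, and reads of such copies can be misplaced, so both are uncertain.

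Several other genes in these lists are regulators or matrix genes, and they were picked out after their values had been seen. Tcf21, a factor of white fat precursors, had a promoter peak in brown only (14.3 and 34.2). Pitx1, the hindlimb homeobox gene, had one in beige only (1.58 and 27.7), as had the matrix genes Omd (48.9 and 46.6), Postn (19.8 and 8.19) and Dpt (15.1 and 1.07). Most of these values lie in the lower part of the lists.

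Some genes gathered many group-specific regions. At least 1 brown-only region lay nearest to 2345 genes (10.7%) and at least 1 beige-only region to 6212 (28.3%). Of all regions, 1.83% were brown-only and 5.86% beige-only. The most brown-only regions lay near Tcp10c (7 of 37). Next came Dlgap1 (6 of 39), Ankrd50 (6 of 47), the PI3-kinase subunit Pik3r1 (6 of 90) and Thrb (6 of 69). The Wnt receptor Fzd8 (6 of 34) and Celf4 (6 of 75) had as many. The most beige-only regions lay near Nfib, a nuclear factor I gene (12 of 80, with 1 brown-only), Myc (11 of 126, with 3 brown-only) and Flrt2 (10 of 75). Near Habp2 8 of 35 regions were beige-only. Pde4d, a cAMP phosphodiesterase, had 8 beige-only and 4 brown-only of 137 regions, and its beige-only share of 5.84% was that of all regions. Genes in wide intergenic stretches collect more regions of every class, so these counts are read beside each gene's total. Myc and Flrt2 were sensitive to the cutoff: with q below 0.00001 the brown-only share near Myc was 0 and the beige-only share near Flrt2 4.55% in place of 13.3%. The shares of all regions at that cutoff are not given here, so these values have no background beside them.

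The regions of the genes the study names had class shares near those of all regions. Ets1 had 5 beige-only regions and 1 brown-only region among 75, and its promoter stood at 89.6 and 95.8 in brown and 88.8 and 88.5 in beige. A shared region at 399473 bp from Ets1 stood at 65.1 and 57.7 in brown and 89.6 and 93.2 in beige. Klf4, an early adipogenic factor, had 7 beige-only regions and 1 brown-only region among 79, and these included a pair close to each other: brown-only at 81638 bp (46.3 and 62.0) and beige-only at 80504 bp (65.0 and 59.3). Its promoter stood at 67.9 and 70.8 against 62.2 and 46.2. Over the 15 genes of the study, which include autophagy and mitochondrial genes, 3 of 219 regions (1.37%) were brown-only and 17 (7.76%) beige-only, against 1.83% and 5.86% of all regions. All 15 had a promoter peak in every library, and 7 stood higher in both brown and 1 in both beige libraries by fold enrichment, against 3 and 4 by −log10 q. Of all 13865 genes with a promoter peak in every library, 33.1% and 17.4% did so by fold enrichment, and 2120 and 4715 genes by −log10 q.

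Within the shared regions, rank differed by more between groups than between replicates. The median absolute difference in percentile was 6.78 points between the brown replicates, 5.92 between the beige replicates and 8.69 between groups. In 955 shared regions (1.40%) both brown percentiles lay at least 20 points above both beige ones, and in 2037 (2.99%) the reverse. With equally long lists these were 1548 and 1456, so the excess on the beige side did not hold there. Of the 955, 9.53% were promoters, and of the 2037, 4.71%, against 22.2% of shared regions. Among shared promoters, the largest gaps toward brown were those of Unc13b (61.8 and 70.8 against 12.3 and 14.1), Cecr2, the bradykinin receptor Bdkrb1 (60.1 and 54.0 against 10.0 and 6.41), Zeb2, a zinc finger repressor (51.6 and 52.8 against 13.7 and 8.69) and Olfr593. Toward beige they were Lrrc23 (23.5 and 18.5 against 75.7 and 67.7), Gprin1 (23.6 and 17.8 against 65.6 and 63.8), Gng13, Gpr6 and Ttll6, a tubulin glutamylase (19.7 and 14.2 against 58.8 and 77.5).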

How the data were processed

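The study deposited 1 ATAC-seq peak list per library. Per the labels, the submitters' processing notes name BWA, SAMtools, MACS2, deepTools and DESeq2 with build mm10. The authors called peaks in each library separately at q of 0.05 with MACS2, without pooling replicates, and the brown libraries' own steps are not given in the sources used here. The deposited fold enrichment is a ratio of the summit pileup to the local background of the same library. The deposited −log10 q is the significance of that summit within the library, as the authors' peak caller wrote it. Both grow with depth and with the share of reads in peaks, and neither was scaled between libraries, so only ranks within a list were compared. White adipocyte lists were not used here.

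Groups came from the labels. Lines sharing an interval were counted once, at the summit of highest −log10 q. Intervals were merged with bedtools 2.31.1 at 1 bp of overlap and assigned to the nearest of 41438 start sites of 21938 protein-coding genes (GENCODE M21 basic). Promoters were within 1 kb. Scripts used pysam 0.24.0, scipy 1.17.1, pandas 2.3.3, numpy 2.4.6 and matplotlib 3.10.9 under python 3.11.15, with sequence from RefSeq GRCm38.p6. In all, 26 consensus motifs were searched, those of CTCF, EBF, NFI, MEF2 and the nuclear receptors by name and the rest by the letters given. Class, merging and motif code were tested on simulated data.

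Members and gene lists were chosen with earlier results of these data known. Named genes were members of the lists with at least 1 group-specific region, the 10 genes with most such regions per group, the 10 highest-ranked regions and promoters per group, and the 5 shared promoters with the largest gap each way, while others are named as chosen after their values were seen. Alternatives covered q cutoffs, equal list lengths, merging, overlap, promoter width, rank gap and leaving out each library. Those for motifs and for the measure of rank were chosen after seeing the data. No test between groups was run. A few genes that the rule would name are not reported here.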

Additional observations from a re-analysis of the deposited data

How the results depend on the processing

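No paired analysis was possible because the labels state no pairing between the replicate numbers of the different depots, and no between-group test was fitted. In every case below the cause was not tested. Brown-only regions numbered 4854 with summit windows, 5877 when 0.5 of both peaks had to overlap and 4958 to 19243 over the 4 subsets of 3 libraries. Regions of the beige-only class numbered 6169 with no brown peak within 1 kb and 13864 to 30122 when a library was left out. The ratio of brown-only to beige-only regions was 0.542 with equally long lists, 0.477 with the 0.5 overlap and 0.165 to 1.10 when a library was left out, passing 1 without brown replicate 1 (1.01) and without brown replicate 2 (1.10).

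The promoter share of brown-only regions was 20.7% with summit windows, 3.88% with intervals up to 200 bp apart merged, 2.90% with no beige peak within 1 kb, 7.93% with 3 kb promoters and 3.89% to 5.72% when a library was left out. For beige-only regions these settings gave 12.5%, 3.79%, 2.2% and 14.9%. For shared regions the share was 24.6% at q below 0.00001, 22.8% with equally long lists, 21.4% with summit windows, 21.1% with bridged intervals, 27.0% with 3 kb promoters and 20.8% to 22.2% when a library was left out.

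Genes with a promoter peak in brown only numbered 33 at q below 0.00001 and 114 to 299 when a library was left out, and those in beige only 224 to 311. Shared regions ranked higher in brown numbered 1548 with equally long lists, 3513 with a gap of 10 points and 2436 to 3545 when a library was left out, and those ranked higher in beige 6469 with a gap of 10 points and 3500 to 6748. The brown Jaccard index was 0.670 at q below 0.00001.

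Without brown replicate 1, AP-1 shares were 14.9% in brown-only and 21.2% in beige-only regions, the reverse order, and over the 4 left-out libraries they ran from 14.9% to 34.5% and from 16.0% to 21.2%. Leaving out a library also changes the classes, as the group that loses it then needs a peak in a single library. The median promoter difference changed sign by −log10 q for all genes (-0.618) and the thermogenic list (-2.03), and among promoters alone for the thermogenic list (-0.435) and the Hox genes (0.153). Read depth was not used and is not given for the brown libraries, and a peak listed in 1 group only can lie just under the cutoff in the other.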
